A study of Mus musculus with 12 samples.

Results

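The mouse Zfp genes described here encode zinc finger proteins, most of which carry C2H2 fingers, the small zinc-bound folds that read DNA or RNA. Members were the autosomal genes whose symbol is Zfp followed by digits, other than Zfp36, with a mean raw count of at least 50 over 12 libraries, each represented by its NM_ transcript with the most reads. That rule kept 201 of the 360 such symbols in the deposited tables, which hold 24445 genes in all. Of the other symbols, 148 lay under the count threshold, 7 were not autosomal, 3 had no NM_ transcript and 1 was Zfp36. The members were chosen by this mean count, so their levels are given as a description. Just inside the threshold lay Zfp229 at 50.17, Zfp850 at 50.42 and Zfp169 at 50.92 reads, and just outside lay Zfp688 at 49.83 and both Zfp771 and Zfp827 at 49.25. On the untreated libraries alone 200 members would have met the threshold, and on the LPS libraries alone 154 would have.

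The cells were bone marrow-derived macrophages, grown from the marrow of C57BL/6 mice with L929-conditioned medium as the source of M-CSF for 7 to 8 days. The labels give 4 groups of 3 libraries that they call biological replicates. These are wild-type cells (WT) and cells of mice lacking DOT1L in the myeloid lineage (KO; the strain label names Lyz2), each either untreated or after 10 ng/mL of lipopolysaccharide (LPS) for 3 hours. DOT1L is the methyltransferase of lysine 79 on histone H3, a mark found over transcribed genes, and LPS is the bacterial cell wall component sensed by the receptor TLR4. Whether each library came from a separate animal is not given, so p-values measure the spread between these libraries.

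Many zinc finger proteins of mammals carry a KRAB box, which recruits the corepressor TRIM28 and with it the histone methyltransferase SETDB1 and HP1 proteins to place repressive chromatin, often over retroelements. Other members carry a SCAN domain, used for pairing with other SCAN proteins, or neither, and these include activators, RNA-binding proteins and ubiquitin ligases. KRAB zinc finger genes often lie side by side in clusters that arose by duplication.

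Among the 201 members, 108 matched a KRAB profile and 93 did not, judged from the translated coding sequence of each gene. A SCAN profile was found in 10 members, 6 of which also had KRAB. The members held a median of 10 C2H2 fingers, with 12 in those with KRAB and 7 in the others. Zfp142 had the most, at 36, and 5 members (Zfp330, Zfp503, Zfp703, Zfp839 and Zfp950) had no match to the finger pattern used. Chromosome 7 held 45 members, chromosome 17 held 30, and chromosomes 8 and 13 held 16 each.

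RefSeq promoter windows (build GRCm38.p6, 250 bases before to 50 bases after a transcript start) were at hand for 167 members, 31 of which had several windows, and the most upstream of those given was taken. Its transcript start lay within 500 bases of the 5′ end of the annotated gene span for 141 members and farther away for 26. Both strands were searched for 6 motifs: the ETS core CCGGAAG, the E-box CACGTG, the CRE TGACGTCA, the AP-1 site TGANTCA, and the kB and CArG consensus motifs. The ETS core was the most frequent, in 37 of 167 members (22.2%), against 21.0% of 7865 windows of genes with a mean count of at least 50 and 9.14% of all 27025 windows. It lay in 5 of 32 windows of members that were higher with LPS in WT cells, in 19 of 86 of those that were lower and in 13 of 49 of those not called. A kB motif lay in 2, 2 and 2 windows of those classes, and only 1 member window had overlapping matches of different motifs. The windows of 4 members are printed 5′ to 3′ with every match in capitals, because they belong to members with large LPS responses in both directions and show that the same ETS core occurs in risers and in a faller. Zfp263 (chr16:3743849-3744148, + strand) and Zfp558 (chr9:18473596-18473895, − strand) rose with LPS and have 1 ETS core each, the window of Zfp558 starting transcription 4655 bases inside the annotated gene span, Zfp316 (chr5:143269973-143270272, − strand) fell and has 2, and Zfp800 (chr6:28397956-28398255, − strand), the largest riser, matched none of the motifs.
Zfp263: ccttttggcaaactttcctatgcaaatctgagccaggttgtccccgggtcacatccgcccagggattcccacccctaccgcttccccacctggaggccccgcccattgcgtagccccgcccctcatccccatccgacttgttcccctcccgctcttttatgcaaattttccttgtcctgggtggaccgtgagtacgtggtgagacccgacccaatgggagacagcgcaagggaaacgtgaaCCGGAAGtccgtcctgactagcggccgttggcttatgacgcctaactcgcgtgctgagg
Zfp558: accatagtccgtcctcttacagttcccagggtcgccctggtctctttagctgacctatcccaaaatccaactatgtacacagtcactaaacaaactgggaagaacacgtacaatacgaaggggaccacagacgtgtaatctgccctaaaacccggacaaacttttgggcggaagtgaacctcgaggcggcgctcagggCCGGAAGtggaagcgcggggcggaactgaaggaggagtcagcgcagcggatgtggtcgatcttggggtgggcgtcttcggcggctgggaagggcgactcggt
Zfp316: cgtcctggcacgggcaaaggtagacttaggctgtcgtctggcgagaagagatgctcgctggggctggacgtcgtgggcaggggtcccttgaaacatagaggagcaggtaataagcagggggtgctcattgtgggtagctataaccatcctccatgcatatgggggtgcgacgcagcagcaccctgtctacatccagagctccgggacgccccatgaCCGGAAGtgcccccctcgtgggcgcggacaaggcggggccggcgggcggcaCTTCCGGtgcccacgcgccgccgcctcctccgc
Zfp800: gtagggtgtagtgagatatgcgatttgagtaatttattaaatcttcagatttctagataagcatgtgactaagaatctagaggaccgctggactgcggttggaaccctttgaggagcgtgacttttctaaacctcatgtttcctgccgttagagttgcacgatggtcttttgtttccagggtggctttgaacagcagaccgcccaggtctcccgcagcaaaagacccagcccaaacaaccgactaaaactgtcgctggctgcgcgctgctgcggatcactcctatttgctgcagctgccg

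Total counts ran from 8.64 to 13.54 M per library. Macrophage markers summed to 4678 to 8140 CPM (counts rescaled to a common library total) in every group, while markers of other lineages were low: 9.86 to 29.6 for neutrophils, 93.3 to 160.6 for dendritic cells and 0.591 to 1.95 for stromal cells. Lymphocyte markers summed to 0.352 to 1.68 CPM untreated and 24.3 to 46.9 with LPS, nearly all of it Lck (24 to 46.6 with LPS), while Cd3e, Cd3g and Nkg7 had at most 0.114 and Ncr1 was at 0 in all libraries. Erythroid and megakaryocyte markers, nearly all of them Pf4, summed to 90.7 to 102.1 in WT and 136.2 to 160.6 in KO untreated, and to 135 to 142.8 and 178.7 to 255.4 with LPS, with Hba-a1 and Hbb-bs at 0. The genotypes did not overlap in that sum, and the part of either marker list in the members' values was not tested. All 8 LPS response markers rose in both genotypes. Dot1l itself stood at 102 ± 16.5 CPM in untreated WT and 90.2 ± 6.81 in untreated KO cells. That count spans the whole transcript, so reads over a deleted part cannot be told from the rest and the level does not check the labels. Lyz2, the gene named in the strain, fell by 1.17 ± 0.10 on the log2 scale in KO against WT with LPS (adjusted p = 0.00143), and had -1.16 ± 0.11 without LPS (adjusted p = 0.0782). Libraries numbered 2 had Ddx3y at 93.98 to 106.3 CPM and Xist at no more than 0.646, while the other 8 had Xist at 542.1 to 823.9 and no Ddx3y read, so both kinds were spread alike over the 4 groups. WT replicate 1 stood apart in both conditions: its counts differed from those of its replicates by a chi-square per gene of 14.1 to 32.4, against 2.54 to 7.69 between the other pairs.

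Levels were compared between genes only on the authors' RPKM, which divide by transcript length. The members' median was 3.04 RPKM, against 11.3 for all genes with a mean count of at least 50, and 23 members exceeded 10 RPKM while 51 lay under 2. Zfp207, a microtubule-associated protein of the spindle, was highest at a mean of 62.1 RPKM, with 52.9 to 83.1 over the 12 libraries. Next came Zfp263 (32.7), Zfp91 (32.4), a ubiquitin ligase acting in noncanonical NF-kB signalling, Zfp710 (26.3), Zfp800 (26.1) and Zfp106 (23.3), an RNA-binding protein needed in muscle and motor neurons. At the low end were Zfp316 (0.727), Zfp619 (0.678) and Zfp850 (0.601). The order in single groups was not that of the overall mean: Zfp800 had 9.43 ± 1.05 RPKM in untreated WT cells and 43.9 ± 4.98 with LPS, while Zfp91 had 41.4 ± 3.69 and 24.6 ± 1.59.

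With LPS, the family's share of all counts went from 0.556% ± 0.0382 (SD, n = 3) to 0.355% ± 0.0102 in WT cells, and from 0.559% ± 0.0145 to 0.348% ± 0.00460 in KO cells. In every LPS library the share (0.345% to 0.367%) was under that of every untreated library (0.533% to 0.600%). In such bulk samples fewer cells of a type and less RNA per cell cannot be told apart. On the TMM scale, used for all CPM here, the members summed to 4676 ± 474 CPM in untreated WT cells and 4355 ± 338.7 with LPS, and the libraries of the conditions overlapped. Within each WT group the highest share was that of replicate 1, at 0.600% and 0.367%.

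In WT cells LPS lowered 103 of the 201 members (51.2%) and raised 33 (16.4%), by edgeR's quasi-likelihood test at an adjusted p under 0.05 over all 11983 genes tested. Of all those genes 29.8% were called lower and 27.6% higher, and of the 9650 with the same mean count of at least 50, 29.5% and 30.3%. Of the members, 47 met the count threshold in the untreated libraries alone and 1 in the LPS libraries alone. Part of the family was thus chosen through the condition where it is high. The part of that choice in the number of fallers was not tested, and the same count was not made for the 9650 genes. The members' median log2 fold change was -0.50, against -0.05 for all genes tested. These values use TMM scaling, which sets the bulk of genes near 0. With library totals in its place all genes shifted to a median of -0.59 and the members to -1.05. Such a change of scaling moves every gene of the contrast down by nearly the same amount. Members thus lay under all genes by 0.45 instead of 0.46 and all 103 remained called lower. Neither could have come out much otherwise, so neither is a check of the result. Of the 33 risers 14 were still called higher, 9 fell below 0 and 1 (Zfp26) was called lower.

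**Figure D1:**
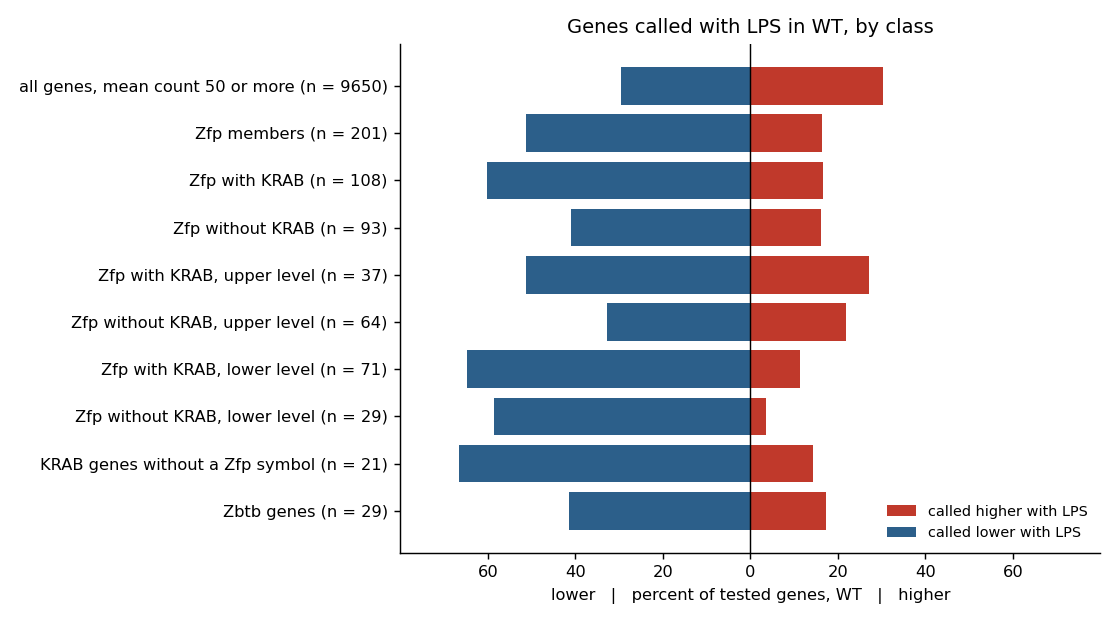
Bars give the percent of tested genes in each class that were called lower (left) or higher (right) with LPS in WT cells, with TMM scaling; upper and lower level divide members at the family's median CPM, not set per length. Zfp members had 51.2% lower and 16.4% higher, all genes with a mean count of at least 50 had 29.5% and 30.3%, and with library totals in place of TMM 14 rather than 33 members were called higher.

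Of the 108 members with KRAB, 65 (60.2%) were lower and 18 higher, with a median log2 fold change of -0.62. Of the 93 members without KRAB, 38 (40.9%) were lower and 15 higher, with a median of -0.30. The classes also differed in read depth, with a median of 9.0 CPM for members with KRAB and 19.6 for the others, not set per length. Since more members met the count threshold without LPS than with it, counts by read depth are given as a description. Below the family's median depth 46 of 71 KRAB members and 17 of 29 others were lower, and above it 19 of 37 and 21 of 64. The part of depth in the difference between the classes was not tested further. By finger number, 16 of 35 members with 0 to 4 fingers were lower, 22 of 58 with 5 to 9, 41 of 66 with 10 to 14 and 24 of 42 with 15 or more. Of the 185 members with at most 20% of their 50-base stretches shared and at most 40% of their exon bases overlapped, 96 were lower and 30 higher. Over all genes tested 29.8% were lower and 27.6% higher, and none of these classes was tested against those shares.

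Among the risers Zfp800, whose human counterpart ZNF800 holds back the endocrine fate in gut epithelium, had the largest change. Untreated libraries had Zfp800 at 41.5, 33.1 and 30.6 CPM in WT and 33.3, 31.1 and 28.4 in KO, and LPS libraries had 286, 224 and 204 in WT and 214, 237 and 219.6 in KO. All 6 LPS libraries lay above all 6 untreated ones, and the log2 fold change was 2.77 ± 0.14 (adjusted p = 7.22e-10) in WT and 2.86 ± 0.14 (adjusted p = 4.64e-10) in KO cells. Zfp281, a GC-box-binding factor of the pluripotency network, was one of the most evenly raised. For Zfp281, the WT libraries held 48.3, 40.8 and 41.8 CPM untreated and 153, 131 and 124 with LPS, and the KO libraries 40.7, 42.9 and 39.7 and 141, 159.6 and 143. The conditions did not overlap, with 1.64 ± 0.10 (adjusted p = 4.86e-09) in WT. Zfp263 is a SCAN protein and, per transcript length, the most abundant of the 8 named risers. Zfp263 stood at 65.6, 48.3 and 54.4 CPM in untreated WT libraries, 59.4, 58.3 and 55.9 in untreated KO, 259, 178 and 175 in WT with LPS, and 182, 253 and 201 in KO with LPS. WT replicate 1 was highest among the WT libraries in both conditions, and the change was 1.86 ± 0.17 (adjusted p = 3.2e-07) in WT.

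The KRAB members Zfp558 and Zfp949 rose as well. Untreated libraries had Zfp558 at 2.23, 2.75 and 1.99 CPM in WT and 2.74, 2.02 and 2.15 in KO, and LPS libraries had 10.3, 10.2 and 10.7 in WT and 13, 8.49 and 12.1 in KO. In human cells ZNF558 acts on the mitophagy gene SPATA18. No LPS library overlapped an untreated one, and the change was 2.16 ± 0.20 (adjusted p = 5.87e-07) in WT. For Zfp949, the WT libraries held 10.6, 7.46 and 8.35 CPM untreated and 49, 36.1 and 30.1 with LPS, and the KO libraries 9.53, 8.99 and 9.31 and 29.1, 39.9 and 32.3. The highest LPS value was that of WT replicate 1, and the change was 2.13 ± 0.19 (adjusted p = 2.71e-07). The remaining named risers were Zfp319, from 21.1 ± 2.95 to 60.7 ± 7.25 CPM, Zfp513, a gene linked to retinal degeneration in humans, from 26.4 ± 0.740 to 72.6 ± 6.72, and Zfp456, from 4.63 ± 0.779 to 11.1 ± 2.1. Zfp456 is uncertain, since 59.2% of its exon bases are overlapped by another annotated gene and 16.5% of its 50-base stretches occur in other transcripts, chiefly Rsl1. All 8 named risers kept their direction with library totals.

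Zfp395 fell further than any other member. Its human counterpart ZNF395 is known from hypoxia and interferon responses, and Zfp704 belongs to the same small group of glucose transporter enhancer-binding relatives. Zfp395 stood at 54.5, 46.5 and 49 CPM in untreated WT libraries, 43.2, 51.6 and 45.9 in untreated KO, 1.5, 1.81 and 3.52 in WT with LPS, and 0.970, 1.2 and 1.03 in KO with LPS. Every LPS library was under every untreated one, by -4.42 ± 0.20 (adjusted p = 2.69e-10) in WT and -5.44 ± 0.22 (adjusted p = 6.52e-11) in KO cells. Untreated libraries had Zfp704 at 102, 67.2 and 77.2 CPM in WT and 85.4, 84.4 and 73.7 in KO, and LPS libraries had 17.5, 13.9 and 14.4 in WT and 13, 13.7 and 11.5 in KO. Zfp704, too, did not overlap between conditions, with -2.43 ± 0.15 (adjusted p = 8.35e-09) in WT. Zfp652, a repressor whose human form partners the corepressor CBFA2T3, behaved likewise. For Zfp652, the WT libraries held 34.9, 22.5 and 22.2 CPM untreated and 5.99, 4.54 and 4.54 with LPS, and the KO libraries 27.3, 25.6 and 21.2 and 4.59, 3.69 and 3.94. WT replicate 1 had the highest untreated value, and the change was -2.41 ± 0.20 (adjusted p = 1.92e-07).

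Of the KRAB members Zfp316 fell the most. Zfp316 stood at 7.75, 8.31 and 10 CPM in untreated WT libraries, 8.28, 7.67 and 7.03 in untreated KO, 1.5, 1.51 and 1.59 in WT with LPS, and 1.5, 1.38 and 2.25 in KO with LPS. The change was -2.49 ± 0.21 (adjusted p = 1.72e-07). The WT libraries with LPS lay close together, but the mean count of Zfp316 over all 12 libraries was only 64.08. Its LPS levels thus stand for few reads, and their closeness is no measure of precision. Zfp41, which had 4 fingers and no KRAB match, went from 8.34 ± 0.868 to 1.74 ± 0.335 CPM in WT, and Zfp953 from 11.2 ± 2.38 to 3.43 ± 0.422. With a mean count of 66.75 over all 12 libraries, Zfp41 also had few reads with LPS. Zfp971 and Zfp764 fell by 2.17 ± 0.34 and 2.03 ± 0.28 on the log2 scale, but 40% and 27.6% of their 50-base stretches occur in other genes' transcripts, so their reads are uncertain. In KO cells the rule for named members added Zfp369 (-1.92 ± 0.17), Zfp709 (-1.79 ± 0.15) and Zfp810 (-1.91 ± 0.22) among the fallers and Zfp324 (1.28 ± 0.17) among the risers, and each of these was also called in WT.

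**Figure D2:**
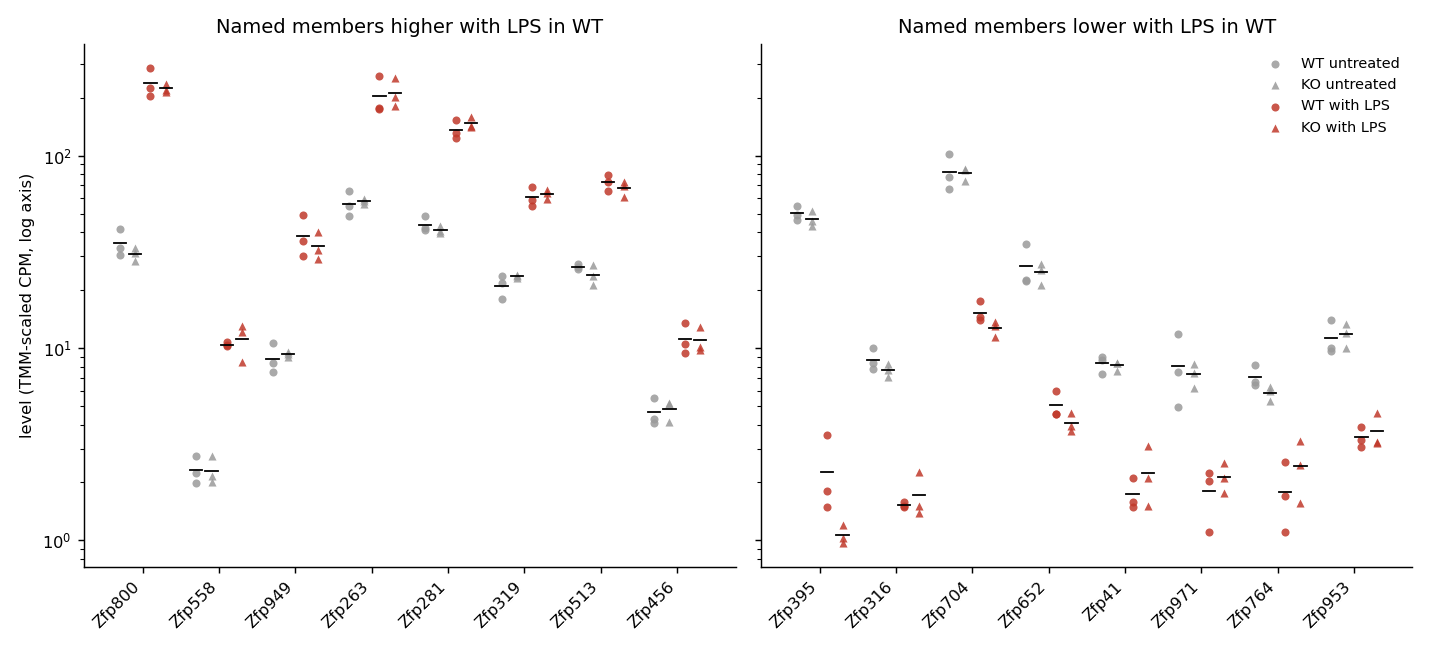
Points give the level in each of the 12 libraries, in TMM-scaled CPM on a log axis, for the 8 named risers and 8 named fallers of WT cells; bars mark group means, circles WT and triangles KO. Zfp800 went from 30.6 to 41.5 CPM in untreated WT to 204.5 to 286.3 with LPS, and Zfp395 from 46.5 to 54.5 to 1.5 to 3.52.

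Members were also followed by known role, in lists of 3 to 12 whose differences from each other were not tested. Of 6 KRAB members known or proposed to silence retroelements or guard imprints, 3 were lower in WT and 2 higher. Of all genes tested 29.8% were lower and 27.6% higher, and so short a list was not tested against those shares. Zfp809, which silences murine leukemia virus sequences, fell by 1.13 ± 0.29 on the log2 scale, from 10.6 ± 4.55 to 4.77 ± 0.420 CPM. Zfp445, a protector of imprints that carries SCAN and KRAB, fell by 0.50 ± 0.08, and Zfp738 fell by 0.88 ± 0.12. Zfp429 rose by 1.21 ± 0.18 and Zfp961 by 0.90 ± 0.16, though Zfp429 shares over 20% of its 50-base stretches with other transcripts. Zfp568, a repressor of a placental Igf2 promoter, had -0.32 ± 0.13 in WT (adjusted p = 0.0516) and was called lower in KO (-0.54 ± 0.13).

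All 10 SCAN members were called in both genotypes, 8 lower and 2 higher, where 27.6% of all genes were higher and 29.8% lower in WT, and 30.3% and 30.9% in KO. The risers were Zfp263 and Zfp213, the latter at 0.83 ± 0.28 with over 40% of its exon bases overlapped by another gene and no call with library totals (0.28). The fallers ranged from Zfp24 (-0.40 ± 0.10) to Zfp369 (-1.59 ± 0.17) in WT.

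Of 12 activators and repressors without KRAB, 4 were higher and 4 lower in WT (33.3% each), near the 27.6% and 29.8% of all genes. Besides Zfp281 and Zfp263, the risers were Zfp143, a promoter-bound activator, at 0.49 ± 0.14, and Zfp260 at 0.35 ± 0.14, both of which had negative values with library totals (-0.05 and -0.20). The fallers were Zfp652, Zfp367 (-1.12 ± 0.11), Zfp703 (-0.81 ± 0.11), a repressor studied in breast epithelium, and Zfp664 (-0.38 ± 0.07). Zfp318, which governs the transcription through the IgD exons in B cells and is on no role list, went from 67.1 ± 8.54 to 23.8 ± 3.61 CPM; it was chosen after its values were seen.

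Members that act on RNA, ribosomes or ubiquitin formed short lists, and their counts are for TMM scaling. Of 9 in the RNA and ribosome list 1 was higher and 1 lower in WT, against 27.6% and 29.8% of all genes, with a median of -0.17. Zfp598, the ligase that marks collided ribosomes, had 0.37 ± 0.10 with TMM and -0.18 with library totals, and Zfp638, an RNA-binding protein that also silences unintegrated retroviral DNA, fell by 0.55 ± 0.10. Zfp622, a factor of large ribosomal subunit maturation, had -0.17 ± 0.10 and Zfp106 -0.26 ± 0.13, neither past the threshold. Of 3 in the ligase list 1 was higher and 1 lower. There Zfp451, a SUMO ligase, fell by 0.93 ± 0.22, while Zfp91 had -0.20 ± 0.11 (adjusted p = 0.128). Among 11 partners of chromatin complexes only Zfp281 was called in WT, and Zfp644, a partner of the H3K9 methyltransferases G9a and GLP, had -0.36 ± 0.18. Others of that list, such as Zfp217 (0.04 ± 0.12), a CtBP-bound factor, and Zfp410 (-0.11 ± 0.12), the activator of Chd4, lay near 0 with TMM.

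The proteins that act with KRAB factors were followed as a list of 39 genes, 37 of which were tested. With LPS in WT cells 16 were lower and 7 higher, with a median log2 fold change of -0.28, against 29.8%, 27.6% and -0.05 for all genes. In percent these were 43.2% lower and 18.9% higher. Trim28 itself had -0.43 ± 0.18 (adjusted p = 0.0552) and varied between WT libraries, at 80.8, 133 and 133 CPM untreated and 66.9, 99.6 and 89.3 with LPS, replicate 1 being lowest in both. Setdb1 fell by 0.88 ± 0.09 (adjusted p = 2.18e-06), with 107, 87.3 and 88.3 CPM untreated and 55.4, 48.4 and 49 with LPS. The DNA methyltransferases Dnmt3a and Dnmt1 fell by 1.78 and 1.43 and the HUSH subunit Tasor by 1.11. On the rising side were Daxx, a chaperone of histone H3.3, at 4.23, the NuRD subunit Gatad2a at 0.85, Morc3 at 1.26 and Pphln1, another HUSH subunit, at 0.78.

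Neighbouring members did not all respond alike. Members within 300000 bases of each other formed 122 runs, 97 of them single genes, and 9 runs held 4 or more members and 63 members in all. In 7 of the 9 both directions were called in WT with TMM, and in 4 of the 9 with library totals. With TMM 38 of these 63 members were lower and 11 higher, beside 103 and 33 of all 201 members. Of all genes tested 29.8% were lower and 27.6% higher. Runs of this size can hold both directions at such shares alone, and how many would was not tested. With library totals 53 of the 63 members were lower and 5 higher, against 63.6% and 14.4% of all genes. Calls and values of the single runs below are those with TMM, and fewer of their risers were called with library totals. A run on chromosome 17 (21383707 to 22456689, GRCm38.p6) of 12 KRAB members had 9 called lower and none higher, from Zfp944 at -1.40 to Zfp51 at -0.01. A run on chromosome 13 (67194506 to 67729178) of 10 KRAB members had 5 lower and 3 higher. There Zfp953 (-1.70 ± 0.21) is followed by Zfp456 (1.27 ± 0.19) and Zfp429 (1.21 ± 0.18), and Zfp455 rose by 0.80 ± 0.21. These 3 risers are uncertain. Of their 50-base stretches 16.5% in Zfp456 and 25.3% in Zfp429 occur in other transcripts, chiefly Rsl1, and 10.3% in Zfp455, chiefly Zfp456. Another annotated gene overlaps 59.2% of the exon bases of Zfp456. Whether the 3 rises are separate was not tested. Another run on chromosome 17 (32765496 to 33631716) of 10 members had 7 lower and 1 higher, Zfp952 (0.73 ± 0.13). On chromosome 7 (29768552 to 30169775) Zfp382 (0.87 ± 0.13) and Zfp260, which was negative with library totals, were higher among 5 fallers. A run of 4 KRAB members on chromosome 6 (47877209 to 48086986) held Zfp777 (1.24 ± 0.20) and Zfp212 (0.76 ± 0.20) beside Zfp282 at -0.74. Neighbours of this kind are often alike in sequence, which limits how far reads can be assigned to 1 of them.

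**Figure D3:**
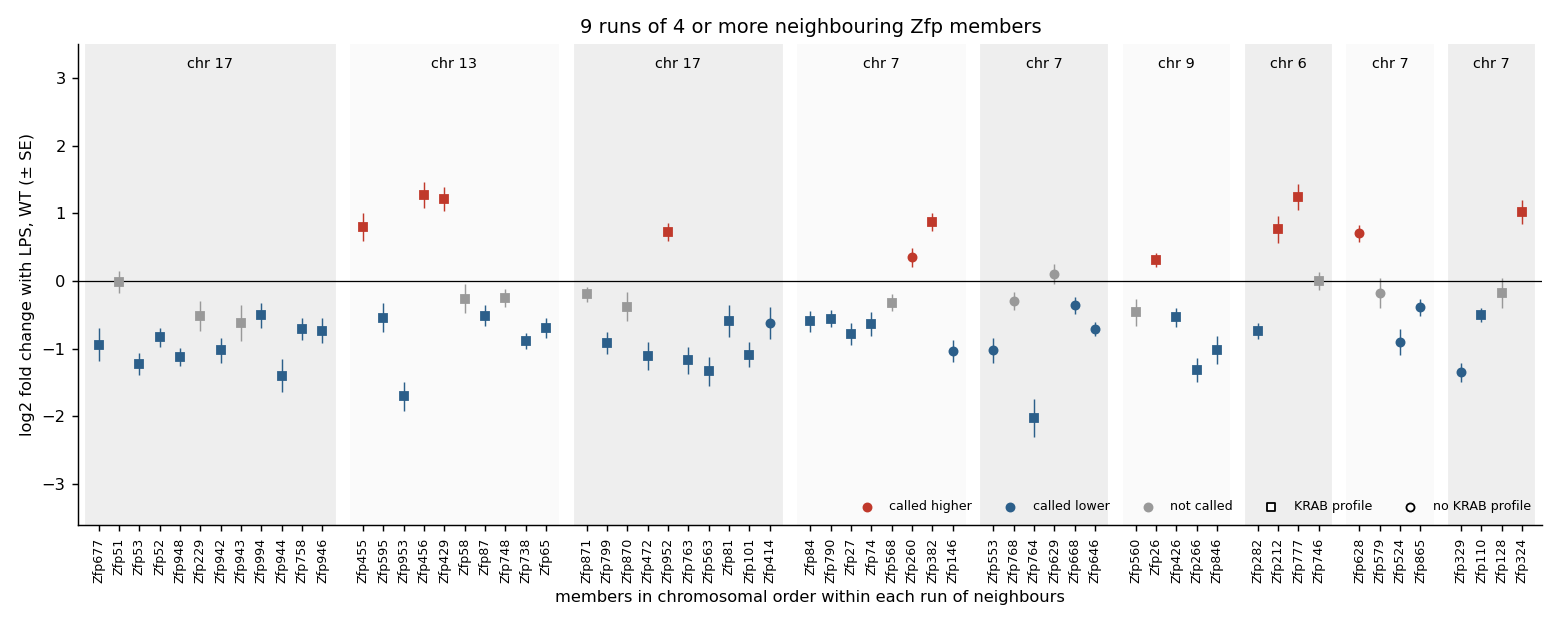
Log2 fold change with LPS in WT cells (TMM scaling, bars ± SE) for the 63 members of the 9 runs of 4 or more neighbours, in chromosomal order within each run and with no distance to scale. The run of 12 on chromosome 17 has 9 members called lower, and the run of 10 on chromosome 13 has 3 called higher among 5 called lower.

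Related zinc finger genes gave values to set beside these. Of 21 KRAB genes without a Zfp symbol, 14 were lower and 3 higher in WT, with a median of -0.67, and of 29 Zbtb genes 12 were lower and 5 higher, with a median of -0.18. Of 13 Zscan and Zkscan genes 6 were lower and 2 higher. Of the 148 Zfp symbols under the count threshold 95 were tested, 50 being lower and 4 higher. Over all genes tested in WT 29.8% were lower and 27.6% higher, and none of these sets was tested against those shares.

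In KO cells, too, more members fell than rose with LPS. There 115 of 201 members (57.2%) were lower and 32 (15.9%) higher, against 30.9% and 30.3% of all genes tested, and the members' median was -0.48 against -0.02. Between genotypes 99 members were called lower in both and 31 higher in both, while none was called in opposite directions. Called lower in WT alone were 4 and in KO alone 16, and called higher 2 and 1. That is no test of a difference, which is given by the interaction. KRAB members were lower in 68 of 108 and others in 47 of 93. Of the members called in both, 35 fell and 11 rose by more than 1 on the log2 scale.

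**Figure D4:**
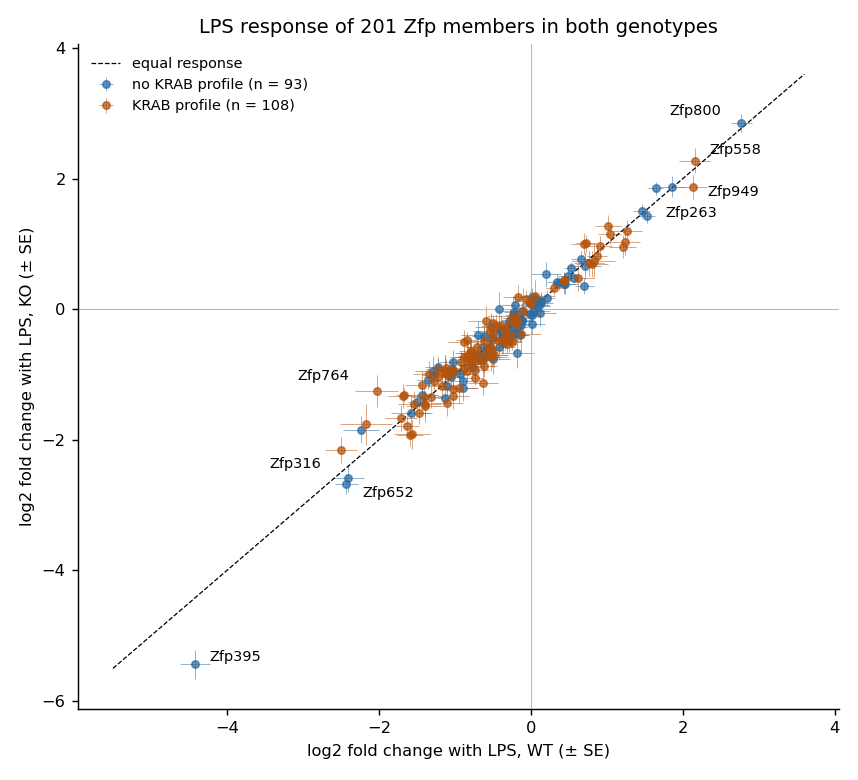
Each point is 1 of the 201 members, with its log2 fold change with LPS in WT cells on the x axis and in KO cells on the y axis (TMM scaling, bars ± SE); the dashed line marks equal response. Members lie along the line, and Zfp395 is farthest from it, at -4.42 in WT and -5.44 in KO.

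No member differed between the genotypes in its LPS response at an adjusted p under 0.05 (edgeR, 0 of 201 and 0% of all 11983 genes, smallest adjusted p 1). At an unadjusted p under 0.05 there were 2 members, Zfp395 and Zfp715, against 2.39% of all genes. Zfp395 had an interaction of -1.02 ± 0.34 (adjusted p = 1, edgeR), from LPS levels of 1.5, 1.81 and 3.52 CPM in WT and 0.970, 1.2 and 1.03 in KO. The groups did not overlap, though these levels are within several-fold of the floor of 3 counts (0.222 to 0.347 CPM). Zfp715, a KRAB member, had 0.35 ± 0.15 (adjusted p = 1, edgeR). Untreated libraries had Zfp715 at 46, 45.4 and 46.8 CPM in WT and 47, 45.4 and 44 in KO, and LPS libraries had 13, 17 and 13.1 in WT and 18.7, 17.3 and 18.6 in KO. Its LPS values were higher in all KO libraries than in any WT library, while the untreated values overlapped. Zfp764 came next at 0.78 ± 0.39.

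Without LPS, loss of DOT1L went with no called change in any member. The edgeR test called 0 of 201 members and 0% of all 11621 genes, and 1 member reached an unadjusted p under 0.05 against 7.24% of all genes. DESeq2 called 0 members, against 0.353% of all genes higher and 0.0688% lower. Members' log2 fold changes ran from -0.43 to 0.36 with a median of -0.02 and a median SE of 0.147, and the smallest adjusted p was 0.668. The 3 members with the smallest p were Zfp608 (-0.37 ± 0.15), Zfp740 (0.20 ± 0.09) and Zfp839 (0.23 ± 0.11), with adjusted p of 0.668 to 0.727 (edgeR). Untreated levels of Zfp608 were 17.3, 13.7 and 16.8 CPM in WT and 13.8, 10.5 and 12.1 in KO, which overlap by 1 library, while for Zfp839 they were 16.4, 16.1 and 14.6 and 17.9, 19.1 and 17.2 and did not overlap. KRAB members had a median of -0.02, as did the others. Without WT replicate 1, the library that stood apart, Zfp810 (0.53 ± 0.15, adjusted p = 0.0464, edgeR) and Zfp945 (0.61 ± 0.17, adjusted p = 0.0424) were called higher in KO. The 0% of all genes rests on that library too, since without it 3.7% of 11814 genes were called higher and 2.64% lower.

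With LPS, 0 of 201 members were called between genotypes, against 1% of all 11264 genes called higher and 0.124% lower. An unadjusted p under 0.05 was reached by 10 members (edgeR), against 13.8% of all genes. DESeq2 called 0 members, against 1.78% of all genes higher and 0.568% lower. The smallest adjusted p was that of Zfp367, at 0.184, with -0.39 ± 0.12. Its LPS levels were 15.6, 18.4 and 18.4 CPM in WT and 13.8, 13.7 and 12.9 in KO, which did not overlap, and without WT replicate 1 it was called lower (-0.46 ± 0.12, adjusted p = 0.0404), where 3.13% of all 11454 genes were called higher and 1.62% lower. Zfp395 had -1.12 ± 0.37 (adjusted p = 0.211) and Zfp710 -0.24 ± 0.08 (adjusted p = 0.23). Levels of Zfp710 with LPS were 187, 162 and 173 CPM in WT and 147, 145 and 152 in KO, again without overlap. The median over members was -0.03.

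**Figure D5:**
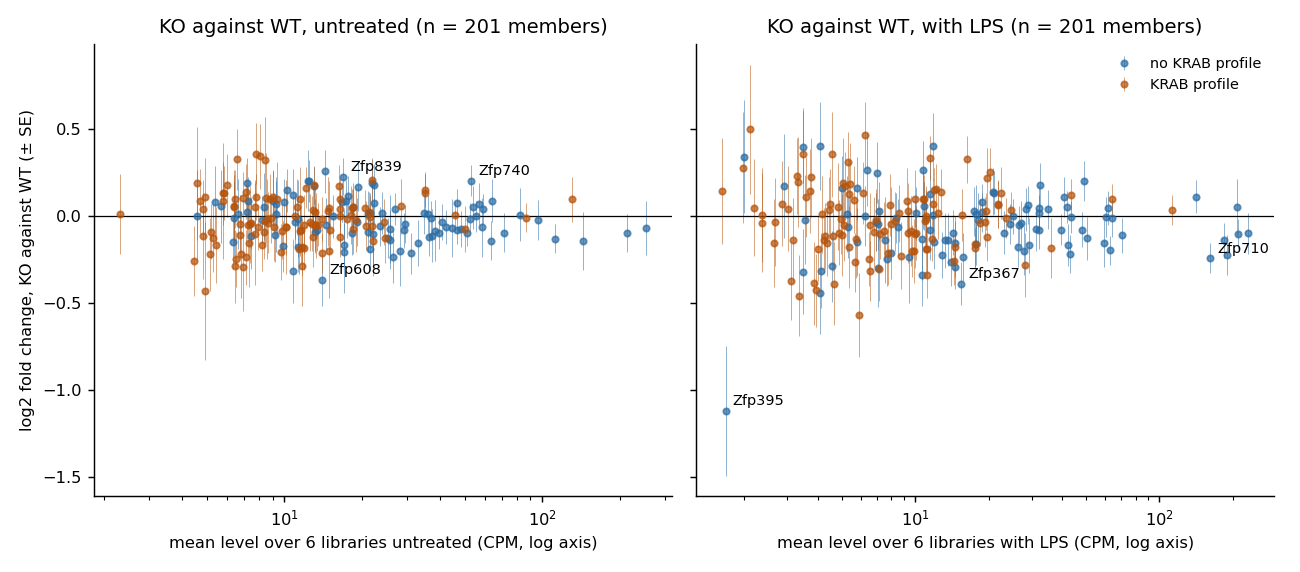
Log2 fold change of KO against WT (± SE) for each of the 201 members against its mean level over 6 libraries in CPM on a log axis, untreated on the left and with LPS on the right. Points scatter about 0, from -0.43 to 0.36 untreated and from -1.12 to 0.50 with LPS, and no member was called.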

How the data were processed

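Poly(A) RNA of the macrophages was sequenced single-end at 50 bp from 700 ng of RNA per library, per the labels' protocols, in 12 libraries. The deposited tables hold whole-number read counts and RPKM values of 35745 RefSeq transcripts. The counts are not normalized by the authors, and the RPKM deposited by the authors divide them by transcript length and library size. Per the submitters' processing notes the tools included SAMtools 1.3.1 and STAR 2.5.2b, with genome build mm10. How reads were counted, and with which strand setting, is not given in the sources used here. Reads of overlapping and antisense genes cannot be told apart. Reads shared by isoforms appear under each isoform, so 1 transcript per gene was used, which gave 24445 genes.

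Raw counts of the untreated and LPS tables were joined, scaled by TMM and tested with edgeR 4.0.16 (R 4.3.3, limma 3.58.1), using filterByExpr, the robust quasi-likelihood F test and Benjamini-Hochberg adjustment over all genes at 0.05. Every adjusted p of a gene comes from that test. Genotypes were compared on the 6 libraries of a condition; LPS contrasts and the interaction came from 1 fit of all 12. Exact permutation of 3 against 3 libraries cannot pass the threshold and was left out. Values after ± are standard errors of log2 fold changes (absolute change divided by the root of F) or, beside CPM, RPKM and shares, SDs with n = 3. CPM use 1 TMM scale over 12 libraries. The floor of 3 counts covers counting error only, while the standard errors include the spread between libraries.

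KRAB and SCAN matches came from profiles (pyhmmer 0.12.3, E under 0.001) on coding sequences of the GENCODE annotation, in place of the RefSeq proteins first planned, and fingers from the pattern C-x(2 to 4)-C-x(12)-H-x(3 to 5)-H. Sharing was counted over 50-base stretches of transcripts. Named members were, for each comparison, the 8 called ones with the largest change in each direction whose groups do not overlap, or, with fewer than 3 called, the 3 with the smallest p; by level, the 6 highest and 3 lowest in RPKM; and members of the role lists. The members and lists were chosen with earlier results of these data known. Alternatives were DESeq2 1.42.0, limma-voom, other size factors, no filter, other transcript choice, a replicate block, other sample sets and leaving out libraries. In simulated counts the scripts recovered most of the largest changes put in. Those counts had the same spread for every gene and no library that stood apart. All changes put in were larger than any untreated genotype difference of a member, so the power to find small differences was not tested.

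Whether libraries of the same number deviate together was checked by the correlation of their deviations from group means. Between conditions it was 0.558, 0.430 and 0.246 in WT, and 0.151, 0.221 and 0.0991 in KO; between genotypes it ran from -0.19 to 0.179.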

Additional observations from a re-analysis of the deposited data

How the results depend on the processing

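Under the other settings run, none of the members named for their change or p in a comparison changed direction or lost its call; members of the role lists were rerun with library totals alone, where Zfp143, Zfp260 and Zfp598 turned negative in WT (-0.05, -0.20 and -0.18) and Zfp213 lost its call. The counts of called members and the medians moved in these cases. With library totals in place of TMM, chosen after seeing the data, the LPS response of WT had 14 members higher, 165 lower and a median of -1.05 (14.4% and 63.6% of all genes), that of KO 14 higher and a median of -1.07 (14.8% of all genes higher and 65.3% lower), and the interaction a median of -0.0407. Leaving out WT replicate 1 in both conditions, also chosen afterwards, gave a WT median of -0.393 and an interaction median of -0.0638. Over all fits that left out libraries, members called higher with LPS ran from 22 to 35 in WT and from 23 to 34 in KO, those called lower from 88 to 113 and from 89 to 117, and the medians from -0.52 to -0.37 and from -0.53 to -0.44. In these fits 21.6% to 31.3% of all genes were higher in WT and 23.2% to 31.2% in KO. Lower were 20.8% to 30.5% and 23.1% to 32.6%. The interaction called 0 members in each, with medians from -0.0920 to 0.0591. Between genotypes the members called higher ran from 0 to 2 untreated and from 0 to 1 with LPS, those called lower from 0 to 0 and from 0 to 1, and the medians from -0.0811 to 0.0621 and from -0.11 to 0.00508. All such calls came without WT replicate 1 or without both libraries numbered 1, where untreated Zfp740 (0.29, adjusted p = 0.0457, edgeR) and Zfp945 (0.70) and, with LPS, Zfp263 (0.36, adjusted p = 0.0498) were called. Without both libraries numbered 1, 3.19% of all genes were called higher and 2.67% lower untreated, and 3% and 1.47% with LPS. The cause was not tested.

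The replicate numbers met the condition for pairing (every correlation over 0.1) between conditions in WT and missed it for 1 KO pair, and they did not pair the genotypes. With the replicate block 34 members were higher and 125 lower with LPS in WT, 34 and 128 in KO, and 0 were called between genotypes or in the interaction, so it moved no count of called members by over 1.5 times. Of all genes 32.9% were then higher and 35.1% lower with LPS in WT, and 36.3% and 36.3% in KO. The members at an unadjusted p under 0.05 went from 10 to 5 between genotypes with LPS and from 2 to 5 in the interaction, and with LPS 44 genes of all were higher and 3 lower in KO instead of 113 and 14 (edgeR).

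Depth limits the weaker members: 51 lay under 2 RPKM, and the median SE of a genotype difference was 0.147 untreated. Reads of 11 members with over 20% of 50-base stretches shared, and of 7 with over 40% of exon bases overlapped, are uncertain. The counting tool is unknown, and a gene's transcripts are not separated.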
